A study of Mus musculus with 32 samples.

Results

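Prostaglandin synthesis and its E-type receptors were followed through 10 genes in RNA-seq of primary mouse chondrocytes exposed to the inflammatory cytokine IL-1β. The genes were chosen by symbol to cover the steps of the pathway, and all 10 were found among the 41388 genes counted in each of the 32 libraries. IL-1β raised 7 of the 10 and lowered 1 in cultures that kept their floxed genes, where 56.2% of all genes tested were called in either direction. Of these, Ptgs2, Ptger4 and Pla2g4a reached lower levels under IL-1β after Cre virus in all 3 floxed lines. Under IL-1β, Ptgs1 and Ptges reached higher levels after Cre virus in the Ldha and Nampt lines, whereas Ptges was lower in the Nfkbiz line. In the Ldha and Nampt lines both genes were also higher after Cre virus without IL-1β. The response to IL-1β was larger after Cre virus for Ptgs1 in these lines, while for Ptges the test of that difference did not pass.

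Prostaglandin E2 is made in steps. Cytosolic phospholipase A2 (Pla2g4a) frees arachidonic acid from membranes, a cyclooxygenase (COX-1 from Ptgs1 or COX-2 from Ptgs2) converts it to prostaglandin H2, and a terminal synthase sets which prostanoid is made. Ptges encodes the inducible microsomal prostaglandin E synthase, Ptges2 and Ptges3 encode other enzymes described as prostaglandin E synthases (Ptges3 is also the Hsp90 co-chaperone p23), and Ptgis encodes prostacyclin synthase. Hpgd starts the breakdown of prostaglandins. Ptger2 and Ptger4 encode EP2 and EP4, receptors that signal through cyclic AMP. In cartilage, COX-2 and prostaglandin E2 are known as products of the inflamed joint.

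The cells came from sternal and rib cartilage of newborn C57BL/6 pups and were used without passaging. There were 16 groups of 2 libraries. Wild-type cells were untreated or received IL-1b (10 ng/mL), FX11 (40 µM), an inhibitor of lactate dehydrogenase A, or IL-1b + FX11, each for 24 h. Cells labelled LDHA flox, NAMPT flox or NFKBIZ flox, called the Ldha, Nampt and Nfkbiz lines here, received adenovirus carrying GFP or Cre for 24 h, with or without IL-1b (10 ng/mL, 24 h). Ldha encodes lactate dehydrogenase A, Nampt the rate-limiting enzyme of the main NAD salvage route, and Nfkbiz the nuclear NF-κB cofactor IκB-ζ. All 24 virus-treated libraries carried a floxed allele. No floxed line lacked a target for Cre, so Cre virus and loss of the gene cannot be told apart within a line. The labels do not tie the 2 libraries of a group to separate cultures or animals, so p-values measure the spread between these libraries, which may be technical.

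The titles divide the libraries into 2 numbered sets, of 12 and 20 libraries. The Nfkbiz line was wholly in set 2, and each other group had 1 library in each set. Totals ran from 15830658 to 39959888 reads assigned to genes. Each floxed gene fell in its own line after Cre virus, from between 1522 and 1562 to between 70.5 and 81.6 TMM CPM for Ldha under IL-1β, from between 66.5 and 66.7 to between 4.53 and 5.72 for Nampt and by 2.93 on the log2 scale for Nfkbiz. These falls were not confined to the line of the floxed gene. Under IL-1β, Nfkbiz was also lower after Cre virus in the Ldha line (-1.30 ± 0.10, adjusted p = 6.64e-06) and the Nampt line (-1.64 ± 0.08, adjusted p = 7.58e-08). Nampt was lower in the Ldha and Nfkbiz lines (-0.53 and -0.99), and Ldha in the Nampt and Nfkbiz lines (-0.33 and -0.82). TMM CPM is the read count scaled to library size (CPM) with trimmed-mean (TMM) factors. Col2a1, the main cartilage collagen, stood between 10889 and 67646 TMM CPM in all 32 libraries. The leukocyte marker Ptprc reached 1.22 in the virus-treated libraries and 7.72 in wild-type ones. Some other leukocyte markers stood higher. Lyz2 reached 133 in wild-type libraries, and Cd68 reached 45.7 in wild-type and in virus-treated libraries. The 6 leukocyte markers summed to as much as 230 TMM CPM in wild-type libraries and 54.6 in virus-treated ones. In the wild type, 2 set 2 libraries went against their labels, as described with the wild-type results.

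The promoters of Ptgs2 and Ptges are shown because these 2 genes shared their rise with IL-1β and parted after Cre virus in the Ldha and Nampt lines. Each is the 250 bases before the RefSeq transcription start, given 5′ to 3′ on the gene's strand in build GRCm38.p6. The Ptgs2 stretch is chr1:150099781-150100030 (plus strand) and the Ptges stretch is chr2:30903298-30903547 (minus strand). The Ptges stretch lies inside the counted Ptges interval, chr2:30889471-30929863, downstream of that interval's 5′ end. Capitals mark GGGCGG, the GC box, in both promoters and TTNCGCAA, a C/EBP site, in Ptgs2, each searched on both strands; none of the marked stretches overlap.
Ptgs2 promoter: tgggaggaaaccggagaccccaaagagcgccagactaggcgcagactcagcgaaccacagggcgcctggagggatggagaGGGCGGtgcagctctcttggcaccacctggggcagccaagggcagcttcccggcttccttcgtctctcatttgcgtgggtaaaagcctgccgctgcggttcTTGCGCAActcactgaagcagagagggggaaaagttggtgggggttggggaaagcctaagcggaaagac
Ptges promoter: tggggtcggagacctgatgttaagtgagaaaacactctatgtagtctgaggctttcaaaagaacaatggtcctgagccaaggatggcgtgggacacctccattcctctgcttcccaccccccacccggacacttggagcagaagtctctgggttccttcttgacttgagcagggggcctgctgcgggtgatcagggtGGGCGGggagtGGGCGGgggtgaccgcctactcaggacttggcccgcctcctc
The C/EBP letters lay 69 to 62 bases before the start of Ptgs2 and were absent from the other members' windows. They occurred in 0.67% of 32851 promoter windows of this length. GC boxes lay at 170 to 165 bases before the start of Ptgs2 and at 53 to 48 and 42 to 37 bases before that of Ptges. A GC box was found in 32.7% of all windows and in 5 of the 9 members with a RefSeq promoter. No member window held TGACGTCA (cyclic AMP response element, 1.55% of all windows), TGANTCA (AP-1, 6.75%) or the NF-κB consensus (3.9%). These are matches of letters and say nothing of binding.

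The first question was how the pathway answered IL-1β in cells that kept their floxed genes. In the 12 GFP libraries, 6 with and 6 without IL-1β, 8 of the 10 genes were called (edgeR quasi-likelihood test, adjusted p at or below 0.05), 7 higher and Ptgis lower. Of all 14283 genes tested, 56.2% were called, so the count of 8 alone does not set these genes apart. The median log2 fold change was 1.31 over the 10 genes and -0.01 over all genes. For 7 of the 10 genes the 6 values with IL-1β did not overlap the 6 without, as for 20.5% of all genes tested.

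**Figure D1:**
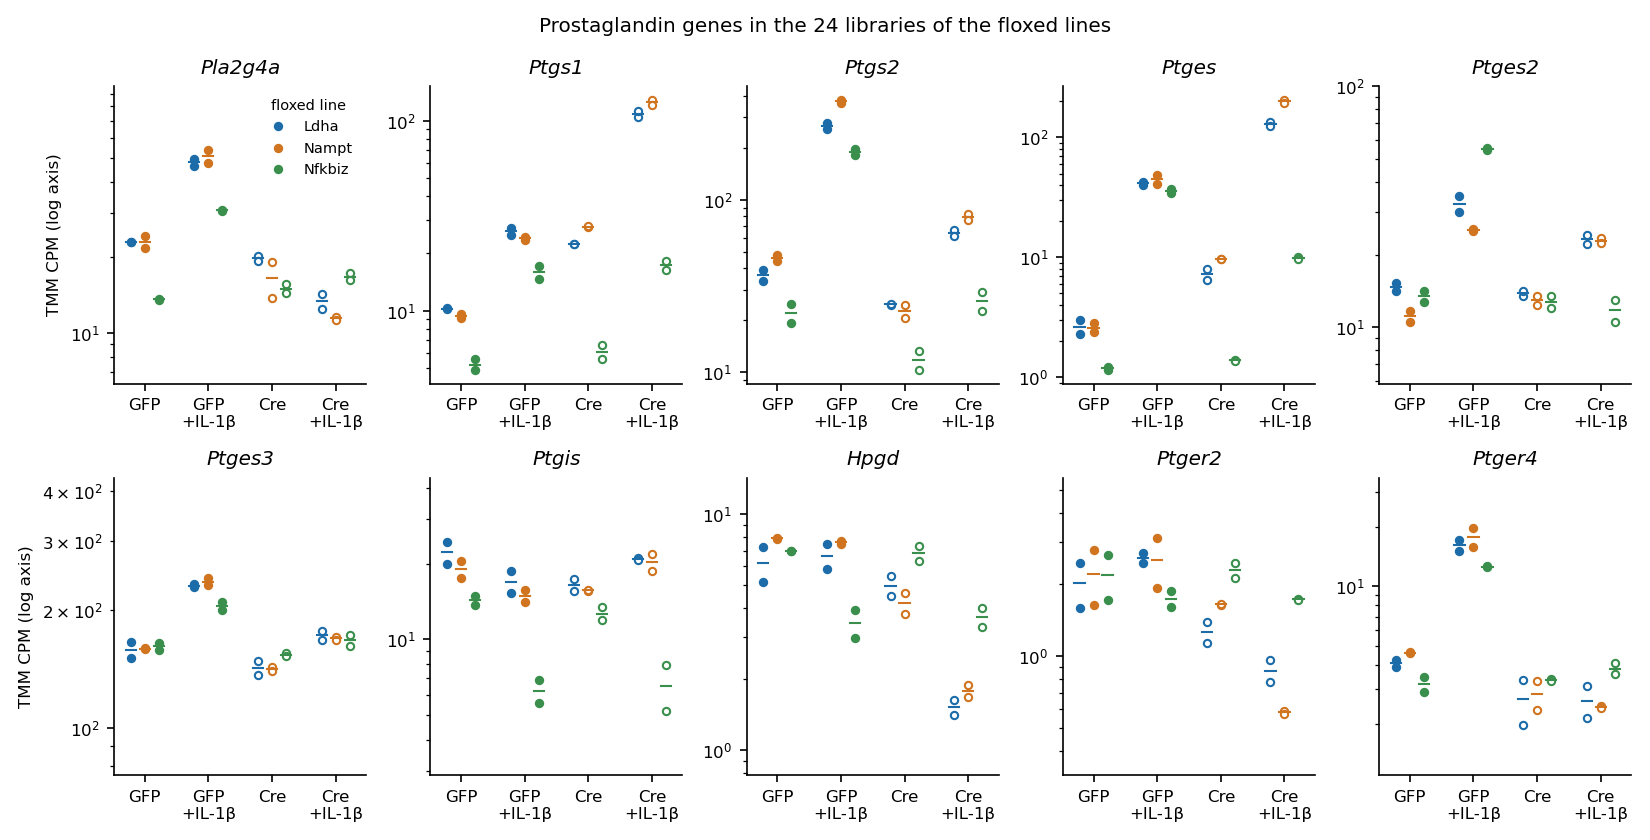
TMM CPM (log axis) of each of the 10 genes in the 24 virus-treated libraries, with 1 point per library, filled for GFP and open for Cre virus, and a bar at the mean of 2. Under IL-1β, Ptgs2 and Ptger4 were lower after Cre virus in all 3 lines, whereas Ptges was higher in the Ldha and Nampt lines (125 to 207 against 40.1 to 48.4) and lower in the Nfkbiz line (9.68 to 10.0 against 34.5 to 37.3).

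Ptges rose most. Its level without IL-1β was 1.15 to 3.01 TMM CPM (median 2.32) and with IL-1β 34.5 to 48.4 (median 40.4), a 19.3-fold rise (log2 fold change 4.27 ± 0.11 SE, adjusted p = 8.26e-15). Ptgs2 went from 19.3 to 47.6 (median 36.4) to 182 to 381 (median 267), 8.17-fold (3.03 ± 0.06, adjusted p = 2.41e-16). Both were far apart with and without the cytokine in every line. Within set 1 and set 2 alone the log2 fold changes were 4.00 and 4.51 for Ptges and 2.94 and 3.08 for Ptgs2.

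The EP4 receptor gene Ptger4 rose 4.01-fold (2.00 ± 0.08, adjusted p = 3.31e-12), from 2.92 to 4.63 TMM CPM to 12.5 to 19.7. Ptges2 rose 2.80-fold (1.49 ± 0.12), Ptgs1 2.76-fold (1.46 ± 0.07), Pla2g4a 2.22-fold (1.15 ± 0.05) and Ptges3 1.43-fold (0.52 ± 0.05). Ptgis fell by 0.56 ± 0.12 on the log2 scale (adjusted p = 5.94e-04), with overlapping ranges of 13.7 to 24.4 without and 5.58 to 18.6 with IL-1β. Hpgd and Ptger2 did not pass the test, at log2 fold changes of -0.25 ± 0.16 and 0.14 ± 0.21. Without IL-1β, Hpgd stood at 5.17 to 7.94 and Ptger2 at 1.59 to 2.79 TMM CPM.

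The order of levels, compared per kilobase of transcript, changed accordingly. Ptges3 was highest in both states, with medians of 72.0 and 104 TMM CPM per kb. Ptgs2 was the next in both. Without IL-1β it stood at 7.96 per kb, and its range of 4.22 to 10.4 overlapped those of Ptgis, Ptges2 and Hpgd. With IL-1β it stood at 58.4 per kb, and its range of 39.8 to 83.1 overlapped no other member's. Ptges stood at 0.591 per kb without IL-1β, between Ptger4 at 0.613 and Ptger2 at 0.567, whose ranges overlapped its own. With IL-1β it stood at 10.3 per kb, above Pla2g4a at 7.34 and Ptgs1 at 6.19.

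Line by line, 7 of the 10 genes were called in Ldha GFP cultures (27.9% of all genes), 7 in Nampt (35.0%) and 9 in Nfkbiz (26.8%). The 7 genes that rose in the pooled comparison rose in each line. For Ptges3 the Nfkbiz call was lost with some single libraries left out, at values of 0.32 to 0.41. Nfkbiz cultures added falls of Ptgis (-1.18 ± 0.20) and of Hpgd, which went from 6.99 and 6.97 TMM CPM to 3.92 and 2.98. The Hpgd call was lost without Nfkbiz GFP + IL-1b replicate 2 (-0.81). For Ptgis the values in Ldha and Nampt were -0.36 and -0.29, and with the library set as a block the Ldha fall passed the test (adjusted p = 0.0101).

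Tests of the difference between lines in this response called 4 of 10 genes for Nfkbiz against Ldha (2.42% of all genes) and 4 for Nfkbiz against Nampt (4.01%). They were Ptges, Ptges2, Ptgis and Hpgd in both. Ptges2, for example, rose 0.87 ± 0.16 more on the log2 scale in Nfkbiz than in Ldha cultures. Between Ldha and Nampt 0 of 10 differed by edgeR (0.0120% of all genes), and 0 of 10 had an unadjusted p under 0.05. Within set 2 alone, with 1 library per Ldha and Nampt group, 0 of the 4 were called in either test, at values of similar size. Against Ldha they were 0.74 for Ptges, 0.80 for Ptges2, -0.85 for Ptgis and -1.23 for Hpgd, and against Nampt 0.76, 0.72, -0.88 and -1.05. Summed fibroblast and perichondrium markers also separated the lines, at 542 to 835 TMM CPM in the Nfkbiz line and 1777 to 4356 in the others; their part in these differences was not tested.

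The next question was what Cre virus did under IL-1β. Against GFP + IL-1b, 9 of the 10 genes were called in the Ldha line (34.0% of all genes), 9 in Nampt (48.4%) and 6 in Nfkbiz (17.4%). Pla2g4a, Ptgs2, Ptges3 and Ptger4 were lower in all 3 lines, and 0 were higher in all 3. These comparisons use the same GFP + IL-1b libraries as the comparison of GFP cultures above.

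**Figure D2:**
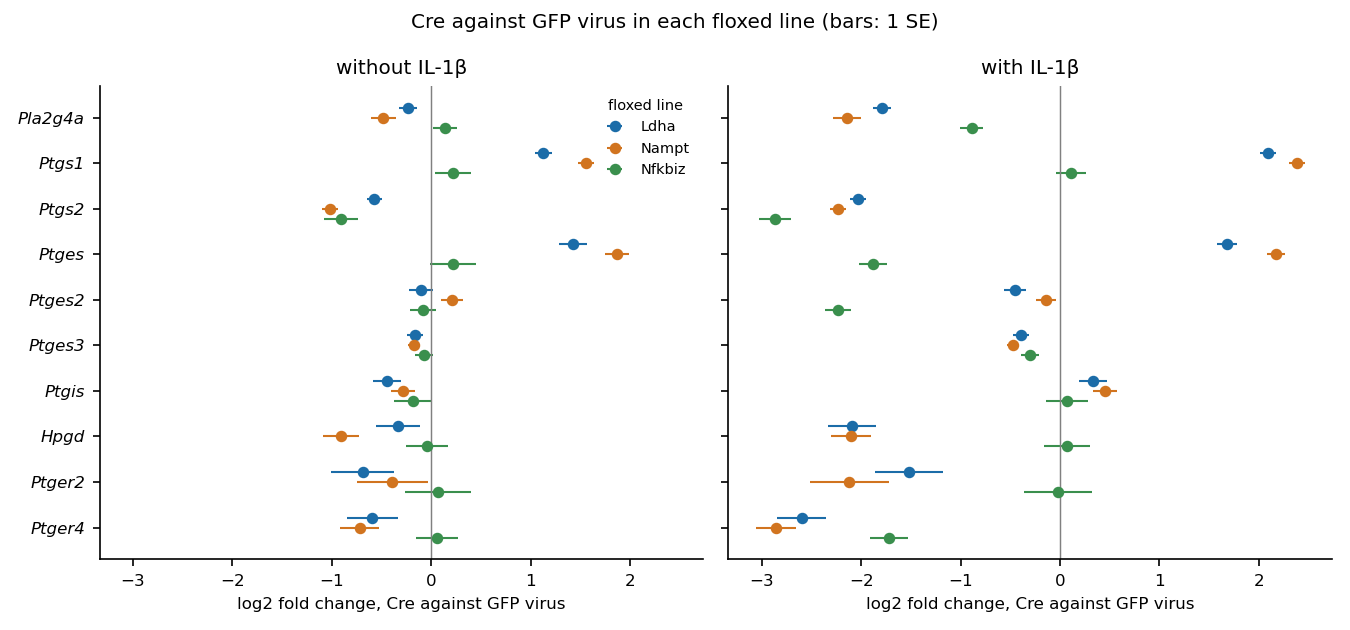
Log2 fold change of Cre against GFP virus for each gene and line, without IL-1β on the left and with it on the right, with bars of 1 SE. Under IL-1β the 3 lines lay together below 0 for Ptgs2 (-2.03 to -2.87) and Ptger4 (-1.72 to -2.86), and on opposite sides of 0 for Ptges (1.68 and 2.17 against -1.88).

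At the phospholipase step, Pla2g4a (chr1:149829618-149961290, minus strand) stood at 49.2 and 46.4 TMM CPM in Ldha GFP + IL-1b and at 14.3 and 12.5 in Ldha Cre + IL-1b. In the Nampt line the values were 53.6 and 47.5 against 11.6 and 11.3. In the Nfkbiz line they were 31.0 and 30.6 against 17.3 and 16.2. Cre cultures were below GFP cultures in each line, with log2 fold changes of -1.79 ± 0.09, -2.14 ± 0.14 and -0.89 ± 0.12 (adjusted p = 4.51e-07, 4.09e-07 and 1.86e-04). In Cre cultures of the Ldha and Nampt lines IL-1β lowered Pla2g4a (-0.49 ± 0.09 and -0.47 ± 0.14), a call lost in Nampt without any of 3 of its Cre libraries.

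The cyclooxygenases parted. Ptgs2 (chr1:150100031-150108227, plus strand) stood at 277 and 258 in Ldha GFP + IL-1b and at 66.6 and 61.8 in Ldha Cre + IL-1b. In Nampt cultures it stood at 381 and 364 against 82.2 and 75.8, and in Nfkbiz cultures at 196 and 182 against 29.3 and 22.7. The falls were 4.07-fold, 4.70-fold and 7.32-fold (log2 fold changes -2.03 ± 0.08, -2.23 ± 0.08 and -2.87 ± 0.16; adjusted p = 1.50e-07, 6.60e-09 and 1.11e-07). All Cre + IL-1b libraries were below all GFP + IL-1b libraries, and in the Ldha and Nampt lines above the GFP cultures without IL-1β.

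Ptgs1 (chr2:36230426-36252272, plus strand) ran the other way in 2 lines. In Ldha it went from 27.2 and 25.1 in GFP + IL-1b to 105 and 112 in Cre + IL-1b, and in Nampt from 23.6 and 24.5 to 129 and 120. These were rises of 4.25-fold and 5.19-fold (2.09 ± 0.08 and 2.38 ± 0.08; adjusted p = 1.50e-07 and 4.11e-09). In Nfkbiz the values were 14.6 and 17.2 against 16.3 and 18.3, which overlapped. Per kilobase, Ptgs1 stood above Ptgs2 in Ldha and Nampt Cre + IL-1b (27.0 to 33.2 against 13.5 to 17.9 TMM CPM per kb). In the other virus-treated libraries with IL-1β it stood below, most narrowly at 4.72 against 4.95 in 1 Nfkbiz Cre + IL-1b library.

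Among the terminal synthases, Ptges (chr2:30889471-30929863, minus strand) stood at 42.5 and 40.1 in Ldha GFP + IL-1b and at 134 and 125 in Ldha Cre + IL-1b. In Nampt it stood at 48.4 and 40.8 against 207 and 194. Both rose, 3.21-fold and 4.49-fold (1.68 ± 0.10 and 2.17 ± 0.09). In Nfkbiz it went from 37.3 and 34.5 to 10.0 and 9.68, a 3.67-fold fall (-1.88 ± 0.14, adjusted p = 1.24e-06). The Nfkbiz Cre + IL-1b values still lay above the 1.15 and 1.22 of Nfkbiz GFP cultures without IL-1β.

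Ptges2 (chr2:32395896-32402739, plus strand) fell mainly in the Nfkbiz line, from 55.6 and 54.2 to 10.5 and 13.0 (-2.23 ± 0.13, adjusted p = 2.03e-07). Nfkbiz GFP cultures without IL-1β stood at 12.7 and 14.1. In Ldha it fell by 0.45 ± 0.11 on the log2 scale and in Nampt the value of -0.14 ± 0.10 did not pass the test. The Ldha fall was not called with either set 2 library of its 2 groups left out (adjusted p = 0.0627 and 0.0977).

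Ptges3 (chr10:128058954-128077272, plus strand) moved little, from 229 and 232 to 177 and 168 in Ldha, from 231 and 241 to 171 and 168 in Nampt, and from 210 and 200 to 173 and 162 in Nfkbiz. The Nfkbiz fall (-0.30 ± 0.09, adjusted p = 0.0399) was lost with any of 3 of the 4 libraries left out. Ptgis (chr2:167191805-167240604, minus strand) was called in Nampt alone, at 0.45 ± 0.12, and with the library set as a block it was also called in Ldha, at 0.34 (adjusted p = 0.0118). Its Nampt call was lost without either set 1 library of the 2 groups.

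Hpgd (chr8:56294552-56321046, plus strand), the inactivating enzyme, went from 7.46 and 5.83 to 1.63 and 1.41 in Ldha and from 7.47 and 7.71 to 1.67 and 1.88 in Nampt. These were falls of 4.26-fold and 4.29-fold (-2.09 ± 0.24 and -2.10 ± 0.20). In Nfkbiz the values were 3.92 and 2.98 against 3.98 and 3.31, and the ranges overlapped.

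Of the receptors, Ptger4 (chr15:5206661-5244187, minus strand) went from 17.1 and 15.1 to 2.16 and 3.11 in Ldha, from 19.7 and 15.7 to 2.47 and 2.41 in Nampt, and from 12.5 and 12.6 to 4.07 and 3.57 in Nfkbiz. The falls were 6.04-fold in Ldha and 7.25-fold in Nampt (-2.60 ± 0.25 and -2.86 ± 0.20), and Nfkbiz gave -1.72 ± 0.19. Ptger2 (chr14:44988195-45003820, plus strand) was scarce, with 14 to 101 reads per virus-treated library. It went from 2.71 and 2.45 to 0.963 and 0.777 in Ldha and from 3.12 and 1.93 to 0.591 and 0.571 in Nampt (-1.52 ± 0.34 and -2.12 ± 0.40), and stood at 1.88 and 1.60 against 1.74 and 1.72 in Nfkbiz. Gm17173, which overlaps Ptger2 on the other strand, also went from 4.62 and 5.92 to 0.697 and 0.680 TMM CPM in Ldha. The strand setting of the counting is not given in the sources used here, so the reads of these genes may not be separable. Ttc33 overlaps Ptger4 in the same way, and went from 9.37 and 10.3 to 7.27 and 6.17 TMM CPM in Ldha. Gm13400 overlaps Ptges on the same strand, and its part in the Ptges counts was not tested.

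Chondrocyte markers also differed between Cre and GFP cultures, lower in sum in the Ldha and Nampt lines and higher in the Nfkbiz line. Their summed level under IL-1β was 24469 to 25509 TMM CPM in Ldha and Nampt GFP cultures and 13499 to 15446 after Cre virus. In these lines 9 and 8 of 10 markers were called lower, beside 34.0% and 48.4% of all genes called in either direction. In Nfkbiz the sum was 27580 to 29713 against 32963 to 35822. Fewer cells of a type and less RNA per cell cannot be told apart in such samples, and the part of the markers in the results above was not tested. Leukocyte markers summed to 54.6 TMM CPM or less in every virus-treated library. Endothelial markers summed to 15.7 to 25.1 in Ldha and Nampt Cre + IL-1b, against 3.97 to 5.72 in GFP + IL-1b. In the virus-treated libraries Kdr reached 21.8, while Pecam1, Cdh5 and Tie1 stood at or below 3.00, 2.04 and 0.555.

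The difference in the Cre effect between lines was tested directly. Nfkbiz differed from Ldha in 8 of 10 genes (27.0% of all genes) and from Nampt in 8 (36.3%). Ptges differed most, by -3.52 ± 0.12 against Ldha and -4.00 ± 0.12 against Nampt, and Ptgs1 by -1.94 ± 0.14 and -2.22 ± 0.14. Ptgs2, lower in all lines, fell by 0.81 ± 0.15 and 0.59 ± 0.15 more on the log2 scale in Nfkbiz (-0.81 and -0.59). Within set 2 alone 5 genes were called in each test, namely Pla2g4a, Ptgs1, Ptges, Ptges2 and Hpgd, while the values for Ptgs2 were -0.83 and -0.60 (adjusted p = 0.0581 and 0.121). Ldha and Nampt differed in 1 gene, Ptges at -0.48 ± 0.11 (0.538% of all genes; adjusted p = 0.0475), and within set 2 the value was -0.57 and was not called (adjusted p = 0.955).

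Without IL-1β, Cre virus moved fewer genes. In Ldha cultures 3 of 10 were called (5.52% of all genes), in Nampt 6 (14.4%) and in Nfkbiz 0 by edgeR (0.260%). With the library set as a block, 4 were called in Ldha and 7 in Nampt. The share of all genes called in that fit is not given here, so these counts cannot be set against it. Ptgs1 and Ptges were already higher in Ldha, from 10.2 and 10.3 to 22.5 and 22.5 for Ptgs1 (1.13 ± 0.09) and from 3.01 and 2.28 to 7.96 and 6.45 for Ptges (1.43 ± 0.14). The Nampt line gave 1.56 ± 0.08 and 1.87 ± 0.12. Ptgs2 fell by 0.57 ± 0.08 in Ldha and by 1.02 ± 0.08 in Nampt on the log2 scale. In Nfkbiz it stood at 19.3 and 24.7 against 13.2 and 10.3, a log2 fold change of -0.91 ± 0.17 with adjusted p = 0.0503. It was called there by DESeq2 (adjusted p = 8.96e-05) and was the 1 member with an unadjusted p under 0.05.

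**Figure D3:**
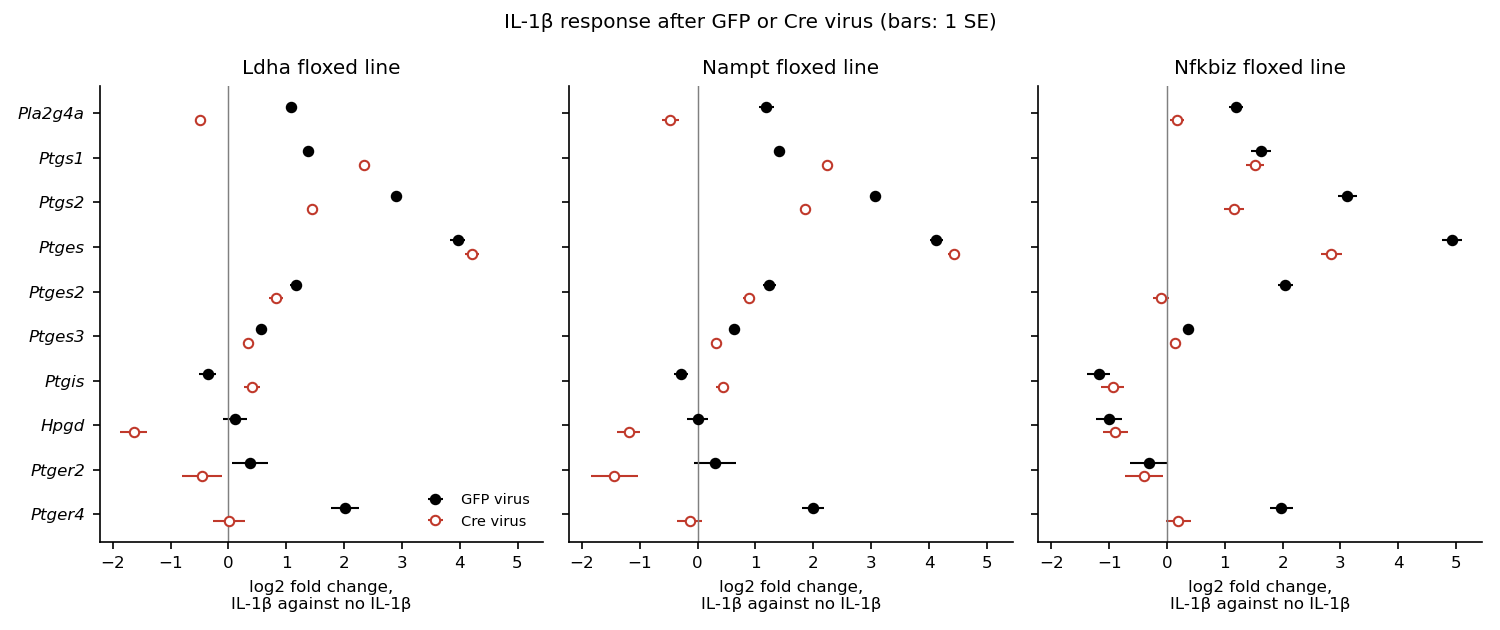
Log2 fold change of IL-1β against no IL-1β for each gene, in GFP cultures (filled) and Cre cultures (open) of each line, with bars of 1 SE. The Ptger4 response of 1.98 to 2.01 in GFP cultures was -0.14 to 0.20 after Cre virus, and the Ptges response stayed at 4.22 and 4.43 in Ldha and Nampt while it was 2.84 in Nfkbiz.

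IL-1β still acted after Cre virus. It changed 8 of 10 genes in Ldha (35.9% of all genes; 6 or 7 with any 1 of the 4 Ldha Cre libraries left out), 9 in Nampt (43.9%) and 5 in Nfkbiz (22.1%). Ptgs1, Ptgs2 and Ptges rose and Hpgd fell in all 3 lines. The Hpgd call in Nfkbiz was lost without Nfkbiz Cre + IL-1b replicate 2 (-0.76) or Nfkbiz Cre replicate 1 (-0.78). Ptgs2 rose 2.72-fold, 3.64-fold and 2.23-fold, and Ptges 18.7-fold, 21.6-fold and 7.16-fold. For Ptger4 the responses of 0.01 ± 0.27, -0.14 ± 0.21 and 0.20 ± 0.21 did not pass the test.

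Whether the IL-1β response itself differed between Cre and GFP cultures was tested as an interaction, which called 6 genes in Ldha (11.5% of all genes), 8 in Nampt (22.0%) and 5 in Nfkbiz (5.19%). For Pla2g4a, Ptgs2 and Ptger4 the interaction was negative in all 3 lines. Pla2g4a, which rose in GFP cultures, was lowered by IL-1β in Ldha and Nampt Cre cultures, as given above. For Ptgs2 the interaction was -1.46 ± 0.12, -1.21 ± 0.11 and -1.96 ± 0.23, and for Ptger4 -2.00 ± 0.36, -2.14 ± 0.29 and -1.79 ± 0.28. In Nfkbiz the interaction was also negative for Ptges2 and Ptges (-2.15 ± 0.19 and -2.09 ± 0.27), and Ptges still rose with IL-1β after Cre virus. In Ldha and Nampt the Ptges interaction of 0.25 ± 0.18 and 0.30 ± 0.15 did not pass the test, so the higher Ptges under IL-1β there stood beside a higher level without it. Ptgs1 gained response in those lines, by 0.96 ± 0.12 and 0.82 ± 0.11. The Ptgis interactions (0.77 in Ldha and 0.73 in Nampt) and that of Ptger2 in Nampt (-1.73, adjusted p = 0.0419) were lost when single libraries were left out, 6 of the 8 in Ldha for Ptgis.

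**Figure D4:**
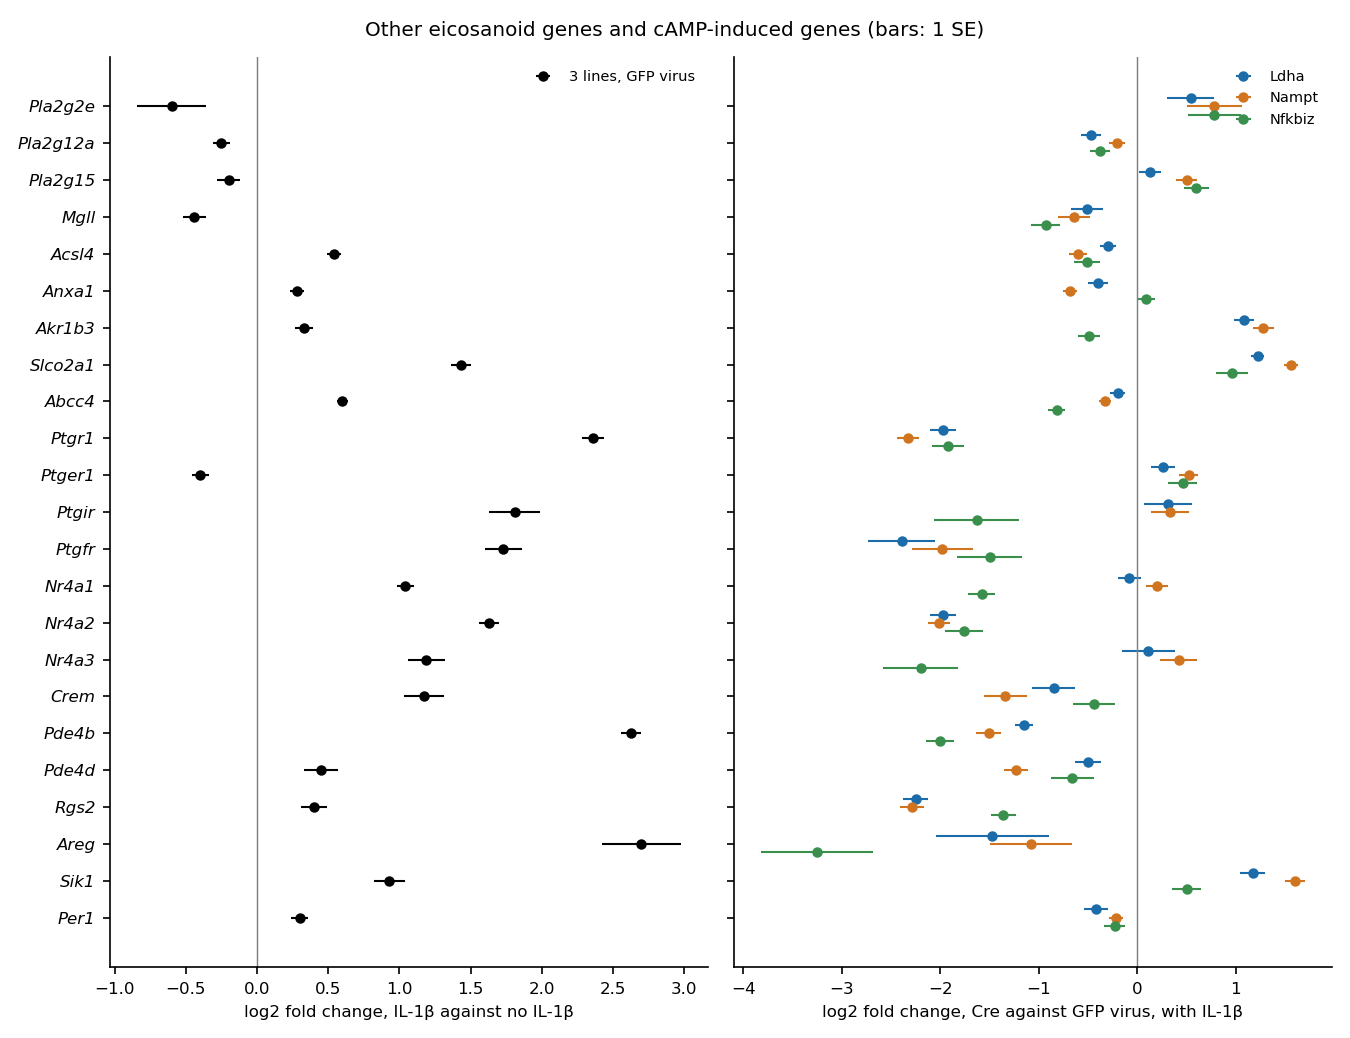
Log2 fold changes of the 23 other eicosanoid and cAMP-induced genes that were called for IL-1β in GFP cultures and for Cre under IL-1β in at least 1 line, with bars of 1 SE. IL-1β against no IL-1β in the 12 GFP libraries is on the left and Cre against GFP virus under IL-1β on the right; Ptgr1, Ptgfr, Nr4a2, Pde4b and Rgs2 were lower after Cre virus in all 3 lines and Slco2a1 and Sik1 higher.

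The wider pathway was read from a list of 41 other eicosanoid genes, 27 of which could be tested in the 12 GFP libraries. IL-1β raised 10 and lowered 10 of them (20 of 27 called, against 56.2% of all genes). Among genes of transport and inactivation, Ptgr1, a prostaglandin reductase, rose by 2.36 ± 0.08 and Slco2a1, the prostaglandin uptake transporter, by 1.43 ± 0.07 on the log2 scale. Abcc4, an exporter, rose by 0.60 ± 0.04 and Ptgr2 fell by 0.31 ± 0.07. Of the other receptors, Ptgir (prostacyclin) and Ptgfr (prostaglandin F) rose by 1.81 ± 0.18 and 1.73 ± 0.13, and Ptger1 fell by 0.40 ± 0.06.

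In arachidonate supply, 9 of 11 tested genes were called, 4 higher and 5 lower, beside 56.2% of all genes. Pla2g4c rose by 1.33 ± 0.24, Acsl4 by 0.54 ± 0.05, Anxa1 by 0.28 ± 0.05 and Pla2g6 by 0.20 ± 0.07. The secreted phospholipase Pla2g5 fell by 1.41 ± 0.09, Pla2g2e by 0.60 ± 0.24, Mgll by 0.44 ± 0.08, Pla2g12a by 0.25 ± 0.06 and Pla2g15 by 0.20 ± 0.08. Akr1b3, an aldo-keto reductase, rose by 0.33 ± 0.06, and Fam213b (-0.70 ± 0.11), Alox5ap (-0.86 ± 0.23) and Alox12 (-0.52 ± 0.16) fell. Thus both directions were found in the list as a whole, with a median of -0.04.

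After Cre virus under IL-1β, 12 of 31 tested genes of the list were called in Ldha, 19 of 32 in Nampt and 11 of 29 in Nfkbiz, beside 34.0%, 48.4% and 17.4% of all genes. Acsl4, Mgll, Ptgfr and Ptgr1 were lower and Alox5 and Slco2a1 higher in all 3 lines. Alox5, 5-lipoxygenase, was outside the rule for named genes and is given here after its values were seen. Ptgr1 went from means of 57.0, 58.3 and 37.2 TMM CPM in GFP + IL-1b to 14.2, 11.5 and 9.87 in Cre + IL-1b (log2 fold changes -1.97 ± 0.13, -2.33 ± 0.11 and -1.92 ± 0.16). Ptgfr went from means of 5.72, 5.36 and 5.11 to 1.09, 1.38 and 1.81. Slco2a1 rose in the same comparisons by 1.22 ± 0.07, 1.56 ± 0.07 and 0.96 ± 0.16.

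Others followed the line. Akr1b3 rose by 1.08 ± 0.10 in Ldha and 1.28 ± 0.11 in Nampt and fell by 0.49 ± 0.11 in Nfkbiz. Ptgir fell by 1.63 ± 0.43 in Nfkbiz, with values of 0.31 ± 0.24 and 0.33 ± 0.19 in the others. Abcc4 was called lower in Nampt and Nfkbiz (-0.33 and -0.82), Anxa1 in Ldha and Nampt (-0.40 and -0.68) and Pla2g12a in Ldha and Nfkbiz (-0.47 and -0.38). Pla2g15 was called higher in Nampt and Nfkbiz (0.50 and 0.60), and Pla2g2e and Ptger1 in Nampt (0.78 and 0.52).

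EP2 and EP4 act through cAMP, so 10 genes known to be induced through cAMP and CREB were read as well. All 10 rose with IL-1β in the pooled fit of GFP cultures, with a median log2 fold change of 1.11. The median over all 14283 genes was -0.01, and of these 56.2% were called and 3993 were higher. Pde4d, Rgs2, Sik1 and Per1 had overlapping values with and without IL-1β, and Pde4d, Rgs2 and Per1 were not called higher in every line. In Nfkbiz GFP cultures Pde4d stood at 12.1 and 10.5 TMM CPM without and 10.8 and 10.5 with IL-1β. Pde4b, a cAMP phosphodiesterase, rose by 2.63 ± 0.07, the growth factor gene Areg by 2.70 ± 0.28 and the orphan nuclear receptor gene Nr4a2 by 1.63 ± 0.07. After Cre virus under IL-1β, 6 were lower and 1 higher in each line, beside 34.0%, 48.4% and 17.4% of all genes called in Ldha, Nampt and Nfkbiz. Nr4a2, Pde4b and Rgs2, a regulator of G-protein signalling, were lower in all 3. Nr4a2 fell by 1.97 ± 0.13, 2.01 ± 0.11 and 1.76 ± 0.19, and Rgs2 by 2.25 ± 0.13, 2.29 ± 0.12 and 1.36 ± 0.13. Sik1, the gene of a kinase, was higher in all 3 lines (1.17 ± 0.13, 1.60 ± 0.10 and 0.50 ± 0.15). Many of these genes also answer other signals, and neither cAMP nor prostaglandin was measured here.

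Likeness over all 32 libraries was described by Pearson's r of log2 TMM CPM among 16455 genes. Nearest to Ptgs2 were Tm4sf1 (0.9345), Ret (0.9298), Prdx6 (0.9237), Hspa4l (0.9194) and Nfkbiz (0.9184). Nearest to Ptges were Tnfaip2 (0.9622), Upp1 (0.9608), B4galt1 (0.9586), Plxnd1 (0.9572) and Mocos (0.9549). No gene was on both lists. The libraries share IL-1β treatment, virus and set, so these values describe these libraries.

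The wild-type cultures asked whether FX11 altered the response. The library of set 2 labelled IL-1b held 5.75 TMM CPM of Ptgs2, 5.34 of Ptges and 9.93 of Nfkbiz, near the untreated library of that set with 2.60, 7.87 and 9.26. The library of set 2 labelled FX11 held 64.2, 71.5 and 168, near the set 2 library labelled IL-1b + FX11 with 82.2, 30.6 and 135. Both libraries thus went against their labels, and their labels were kept.

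**Figure D5:**
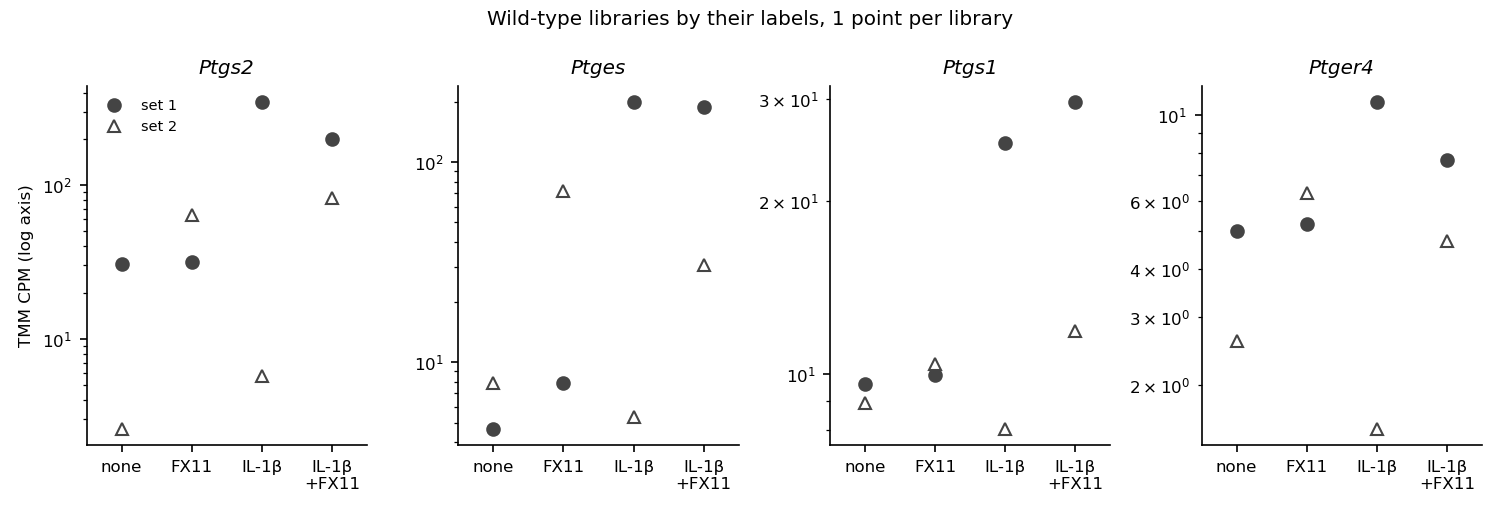
TMM CPM (log axis) of 4 genes in the 8 wild-type libraries by label, filled circles for set 1 and open triangles for set 2. In set 1 the libraries with IL-1β stood apart from those without, with Ptges at 188 and 199 against 4.66 and 7.88, whereas in set 2 the library labelled FX11 was high and the one labelled IL-1b low.

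In set 1, with 1 library per condition and no replicate check, Ptgs2 stood at 30.9 untreated, 31.4 with FX11, 346 with IL-1b and 200 with IL-1b + FX11. Ptges stood at 4.66, 7.88, 199 and 188, Ptger4 at 5.02, 5.23, 10.8 and 7.66, and Ptgs1 at 9.62, 9.99, 25.2 and 29.6. Pla2g4a stood at 23.4, 22.4, 66.3 and 58.9 and Ptges2 at 17.4, 16.7, 63.1 and 53.1. All 6 were above the untreated library in both libraries with IL-1β. Ptgs2 and Ptger4 were lower, and Ptges close, when FX11 was added.

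Across both sets, 0 of the 10 genes were called by edgeR in any of the 4 wild-type comparisons (0% of all 15461 genes in each). Unadjusted p-values under 0.05 went to 153 of all genes for IL-1b against untreated, 68 for FX11 against untreated, 102 for IL-1b + FX11 against IL-1b and 860 for IL-1b + FX11 against untreated, and DESeq2 called 6, 2, 1 and 144 of all genes. For IL-1b against untreated the log2 fold changes were 3.39 ± 1.83 for Ptgs2 and 4.02 ± 1.86 for Ptges (adjusted p = 1.00 for both). With both set 2 libraries that went against their labels left out, a choice made after seeing the data, they were 4.36 and 4.97 (adjusted p = 0.446 and 0.279), and 0 of the 10 genes were called. For IL-1b + FX11 against IL-1b the values were -0.32 ± 1.67 for Ptgs2 and 0.10 ± 1.64 for Ptges, and -1.29 and -0.86 without those libraries. In both comparisons without them, IL-1b came from set 1 alone and the other group from both sets, with no set term. Within set 1, Ptges stood at 199 with IL-1b and 188 with IL-1b + FX11. An effect of FX11 on these genes was not detectable in these libraries.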

How the data were processed

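RNA from primary mouse chondrocytes was depleted of ribosomal RNA, sequenced on an Illumina HiSeq, aligned by the authors with STAR to GRCm38 (Ensembl release 76) and counted per gene with featureCounts. The submitters' processing notes name STAR 2.0.4b and featureCounts 1.45; the methods give other versions. Each deposited file holds raw counts, CPM and RPKM per gene; CPM and RPKM were recomputed from the deposited counts and equalled them (largest relative difference 5.1e-15 and 7.0e-14), so counts alone were used. Symbols came from GENCODE M21, which named 40340 of 41388 genes.

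Counts were fitted with edgeR 4.0.16 (TMM factors, quasi-likelihood F test, two-sided, Benjamini-Hochberg over all genes tested), with 355 ribosomal RNA genes left out and genes kept at more than 1 CPM in at least 1 library, or 5 for the 12 GFP libraries. Each line was fitted over its 8 libraries by group, the 12 GFP libraries with line, set and IL-1β, and differences between lines over 24 libraries with 12 groups and set. Standard errors were the log2 fold change over the square root of F. The models were tested on simulated data. Named genes were all 10 members, list genes called for IL-1β in GFP cultures and, of these, those called for Cre under IL-1β, and the 5 most alike to Ptgs2 and to Ptges; other genes were named after their values were seen. Members and lists were chosen with earlier results of these data known. DESeq2 1.42.0, limma 3.58.1 voom with quality weights, other size factors, filters, blocks and left-out libraries were alternatives. Replicates differed beyond sampling noise in all 16 groups, with a mean chi-square per gene of 6.98 or more. Library numbers paired samples in Ldha and Nampt, where deviations between sets correlated at 0.421 to 0.663 and 0.444 to 0.575 across conditions, and not in Nfkbiz (-0.353 to 0.131). RefSeq promoters (GRCm38.p6) were found for 9 of 10 members.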

Additional observations from a re-analysis of the deposited data

Results flagged for a closer look

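Each value here is a difference between 2 lines in a log2 fold change, called by edgeR's quasi-likelihood test at an adjusted p of 0.05 or less over 24 libraries with the library set in the model. The effect of Cre virus under IL-1β differed between Nfkbiz and Ldha by 2.21 for Hpgd, 0.95 for Pla2g4a, 1.54 for Ptger2 and 0.92 for Ptger4, all higher in Nfkbiz. It was lower in Nfkbiz by -3.52 for Ptges, -1.75 for Ptges2, -1.94 for Ptgs1 and -0.81 for Ptgs2. Against Nampt, the same genes gave 2.23 for Hpgd, 1.30 for Pla2g4a, 2.15 for Ptger2, 1.18 for Ptger4, -4.00 for Ptges, -2.04 for Ptges2, -2.22 for Ptgs1 and -0.59 for Ptgs2. Between Ldha and Nampt, Ptges differed by -0.48.

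The IL-1β response in GFP cultures differed between Nfkbiz and Ldha by -1.14 for Hpgd, 0.95 for Ptges, 0.87 for Ptges2 and -0.84 for Ptgis. Between Nfkbiz and Nampt it differed by -1.02 for Hpgd, 0.78 for Ptges, 0.81 for Ptges2 and -0.91 for Ptgis. The titles place the Nfkbiz line wholly in set 2. Within that set, with 1 library per Ldha and Nampt group, none of these 8 response differences was called by edgeR, at values of -1.23 and -1.05 for Hpgd, 0.74 and 0.76 for Ptges, 0.80 and 0.72 for Ptges2 and -0.85 and -0.88 for Ptgis against Ldha and Nampt.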

How the results depend on the processing

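Of 130 called member values, none changed direction under any alternative run. Within set 2 alone, members called for the Cre effect under IL-1β fell to 5 for Nfkbiz against Ldha, 5 for Nfkbiz against Nampt and 0 for Ldha against Nampt, and for the IL-1β response to 0 in both Nfkbiz tests, from 8, 8, 1, 4 and 4; these fits hold fewer libraries. Cre without IL-1β in Nfkbiz gave 1 member (Ptgs2) under DESeq2, RLE factors, filterByExpr, no filter and a model of 24 libraries, against 0. With 1 library left out, members called ranged from 4 to 5 for Cre without IL-1β in Nampt, from 6 to 7 for IL-1β in Ldha Cre cultures (8 with all libraries), from 6 to 9 for IL-1β in Nampt Cre cultures and from 6 to 7 for the Nampt interaction; Ptgs2 without IL-1β in Ldha lost its call without Ldha Cre replicate 1 (adjusted p = 0.0555).

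With the library set as a replicate block, which pairs the Ldha and Nampt libraries, Ptgis passed under IL-1β in Ldha (0.34) and for IL-1β in Ldha GFP cultures (-0.36), and counts became 10 and 8 there. Members called also became 4 for Cre without IL-1β in Ldha, 7 in Nampt, and 8 for IL-1β in Nampt GFP cultures. The shares of all genes called with the block are not given here. In Nfkbiz, where samples share only a number given in accession order, the replicate block took Ptges3 to an adjusted p of 0.0716. The block changed no other call among the values called without it.

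Uncalled values changed sign. Hpgd in the pooled IL-1β response was 0.06 without the Nfkbiz line and 0.01 in set 1, and Ptger2 was -0.09 in set 2. In the wild type, Ptgs2 for IL-1b + FX11 against IL-1b was 0.72 with the replicate block and 1.44 with voom weights, and ranged from -1.29 to 4.61 with 1 library left out. Ptges there was -0.86 without both doubted libraries, where IL-1b came from set 1 alone, and ranged from -1.70 to 4.35. For IL-1b against untreated, Ptgs2 ranged from -1.54 to 6.06 and Ptges from -0.23 to 4.97, negative without the set 1 library labelled IL-1b. The cause was not tested. Low counts limit Ptger2, with 14 to 101 reads per virus-treated library.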
